A study of Mus musculus with 6 samples.

Results

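The NRF2 antioxidant genes described here are 10 mouse genes: Gclc, Gclm and Gsr of the glutathione system, Txnrd1, Srxn1 and Prdx1 of the thioredoxin and peroxiredoxin system, G6pdx of NADPH supply, and Nqo1, Hmox1 and Osgin1, which act on quinones, heme and stress. They were chosen by symbol, and all 10 had a row among the 12027 rows of the count table. The mice were C57BL/6 males at an age of 8 weeks that had undergone partial hepatectomy (PHX), in which a piece of the liver is cut away and the remnant regrows. Whole-liver RNA gave 6 libraries, 1 per group. The groups were OGT-KO (OGT-/y) with its OGT control (OGTfl/y) at 28 days, and OGA-KO (OGA-/-) with its OGA control (OGAfl/fl) at 14 and at 28 days. OGT attaches the sugar O-GlcNAc to proteins inside the cell and OGA removes it. Per the labels the knockouts were restricted to hepatocytes, both control groups carried the floxed allele, and each library pooled the RNA of 3 mice in equal amounts. The Cre driver was not given in the sources used here.

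NRF2, encoded by Nfe2l2, is a transcription factor that the adaptor KEAP1 holds in the cytoplasm and hands to a ubiquitin ligase for degradation. When reactive molecules modify KEAP1, NRF2 accumulates, pairs with a small MAF protein in the nucleus and binds antioxidant response elements near genes for glutathione synthesis, thioredoxin recycling, NADPH supply and quinone reduction. In liver this program is known for its part in the defence of hepatocytes against electrophilic drugs. The best described element has the core TGACNNNGC, and the related motif TGANTCA is bound by AP-1 and by small MAF partners.

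Promoter windows of 250 bases before the transcription start were read from RefSeq (GRCm38.p6) to show which members carry these letters. Of the members, 7 matched an entry; Gclc, Gsr and Hmox1 did not. The search covered both strands of windows of 300 bases, 250 before and 50 after the start. These 7 genes had 9 windows, 3 of them of Txnrd1. TGACNNNGC stood in 5 of the 9 windows (1 each of Srxn1, Gclm, Prdx1, Txnrd1 and G6pdx), against 12.4% of 32851 windows of all genes. The palindromic TGANTCA stood in 3 of the 9 (Srxn1, Prdx1 and Osgin1), against 7.81% of all windows. The first 5 windows below hold a motif before the start, and the sixth, of Nqo1, holds neither. Letters farther upstream were not searched, so a window without a match does not show that the gene lacks an element. The Txnrd1 window with a TGACNNNGC match 92 bases before the start is not shown. Capitals mark the motif letters on either strand. They lie at chrX:74428881-74429130 (minus strand) for G6pdx, chr3:122245307-122245556 (plus) for Gclm, chr4:116685349-116685598 (plus) for Prdx1, chr2:152105274-152105523 (plus) for Srxn1, chr8:119436897-119437146 (plus) for Osgin1 and chr8:107403206-107403455 (minus) for Nqo1.
G6pdx: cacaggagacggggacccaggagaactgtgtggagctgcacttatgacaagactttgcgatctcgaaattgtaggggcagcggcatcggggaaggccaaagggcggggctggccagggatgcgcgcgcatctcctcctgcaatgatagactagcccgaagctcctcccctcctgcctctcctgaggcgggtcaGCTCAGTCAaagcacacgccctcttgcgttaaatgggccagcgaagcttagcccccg
Gclm: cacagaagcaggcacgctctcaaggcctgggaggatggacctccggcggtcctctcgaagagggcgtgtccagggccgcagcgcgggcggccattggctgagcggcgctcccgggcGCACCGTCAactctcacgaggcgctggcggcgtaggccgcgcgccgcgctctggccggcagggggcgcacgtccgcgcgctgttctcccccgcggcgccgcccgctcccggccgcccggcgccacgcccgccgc
Prdx1: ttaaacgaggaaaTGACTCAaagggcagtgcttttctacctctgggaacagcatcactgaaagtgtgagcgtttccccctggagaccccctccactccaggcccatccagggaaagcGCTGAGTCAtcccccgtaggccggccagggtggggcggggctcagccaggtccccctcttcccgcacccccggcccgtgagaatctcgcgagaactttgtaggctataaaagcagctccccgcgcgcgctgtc
Srxn1: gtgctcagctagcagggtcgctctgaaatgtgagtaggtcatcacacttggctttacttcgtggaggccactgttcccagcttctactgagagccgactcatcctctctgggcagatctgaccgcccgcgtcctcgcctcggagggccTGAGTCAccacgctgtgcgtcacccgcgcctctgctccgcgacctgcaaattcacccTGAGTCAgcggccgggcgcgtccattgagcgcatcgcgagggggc
Osgin1: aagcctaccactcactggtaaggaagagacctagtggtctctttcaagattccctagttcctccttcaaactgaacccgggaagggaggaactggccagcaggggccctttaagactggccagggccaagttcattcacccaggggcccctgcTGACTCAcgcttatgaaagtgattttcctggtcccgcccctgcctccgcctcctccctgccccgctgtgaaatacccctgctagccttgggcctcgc
Nqo1: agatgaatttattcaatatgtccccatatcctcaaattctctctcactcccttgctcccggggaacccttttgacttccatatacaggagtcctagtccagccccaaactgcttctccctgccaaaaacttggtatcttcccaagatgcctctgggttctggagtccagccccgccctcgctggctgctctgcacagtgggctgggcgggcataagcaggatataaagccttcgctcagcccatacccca

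In these windows the element of G6pdx began 57 bases before the start, that of Gclm 134 bases before it and that of Prdx1 133 bases before it. The Prdx1 element read TGACTCAGC on the minus strand and overlapped a TGANTCA match. Srxn1 held TGAGTCA 102 and 45 bases before the start, and its TGACNNNGC match lay past the start, outside the letters shown. Osgin1 held TGACTCA 97 bases before the start. Only 1 of 3 Txnrd1 windows, the second along the chromosome, held TGACNNNGC. A match describes the letters and is no evidence of binding.

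Library totals ranged from 20433100 to 29327722 counts. The 2 OGT libraries stood apart from the 4 OGA libraries in composition: trimmed-mean (TMM) factors, which scale each library for its makeup, were 1.367 for OGT-KO and 1.056 for OGT control, against 0.9002 to 0.9245 in the OGA libraries. Values below are TMM-scaled CPM, counts divided by the effective library size, unless the deposited CPM is named. Scaling by library totals in place of TMM would lift the all-gene median of the log2 ratios by 0.37 in the OGT pair and by 0.22 between the control lines. The targeted Oga was at 10.4 CPM in OGA-KO and 62.2 CPM in its control at 14 days, and at 12.8 CPM in OGA-KO and 67.2 CPM in its control at 28 days. Ogt was at 43.2 CPM in OGT-KO and 58.0 CPM in OGT control, with an edgeR log2 effect of -0.43 (adjusted p = 0.0144). This call was lost with library totals (-0.06, adjusted p = 0.637), in DESeq2 (0.244) and without the line term (0.1). A transcript count need not show the deletion. Hepatocyte markers were present in every library, with 12 of 12 detected.

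Each group is 1 library, so ratios carry a 95% counting interval and have no replicate check. The edgeR quasi-likelihood test used all 6 libraries with terms for line and day, left 1 residual degree of freedom, and assumed that the OGT libraries vary like the OGA libraries. Its OGT-KO effect restates the ratio of OGT-KO over OGT control and is no separate support for it. Its line effect sets the OGT control library alone against the fitted OGA control level at 28 days. The p-values of this test are adjusted by Benjamini-Hochberg over 12026 genes, and only genes with an adjusted p under 0.05 are said to have risen, fallen or changed. The alternative fit without the line term sets OGT-KO against the controls of both lines, so line differences enter its effect and error. In bulk tissue, fewer cells of a type and less RNA per cell cannot be told apart.

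In the OGT-KO library the NRF2 antioxidant genes did not move together. Hmox1, G6pdx and Nqo1 stood several-fold above OGT control, Gsr and Srxn1 were moderately higher, Gclm was lower, and Gclc, Txnrd1, Prdx1 and Osgin1 did not pass the test. By edgeR 5 of 10 rose and 1 fell. Across all genes tested 52.7% changed in this comparison, 26.1% upward and 26.6% downward, so a share of 6 in 10 is near the background. These were 3134 genes upward and 3198 downward, and 5334 and 1862 with library totals as the scale, under which the members still gave 5 and 1. The members' median log2 effect was 0.22 and that of all genes 0.00. At least 2-fold higher were 3 of 10 members and at least 2-fold lower 0 of 10, against 16.4% and 11.7% of all genes.

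**Figure D1:**
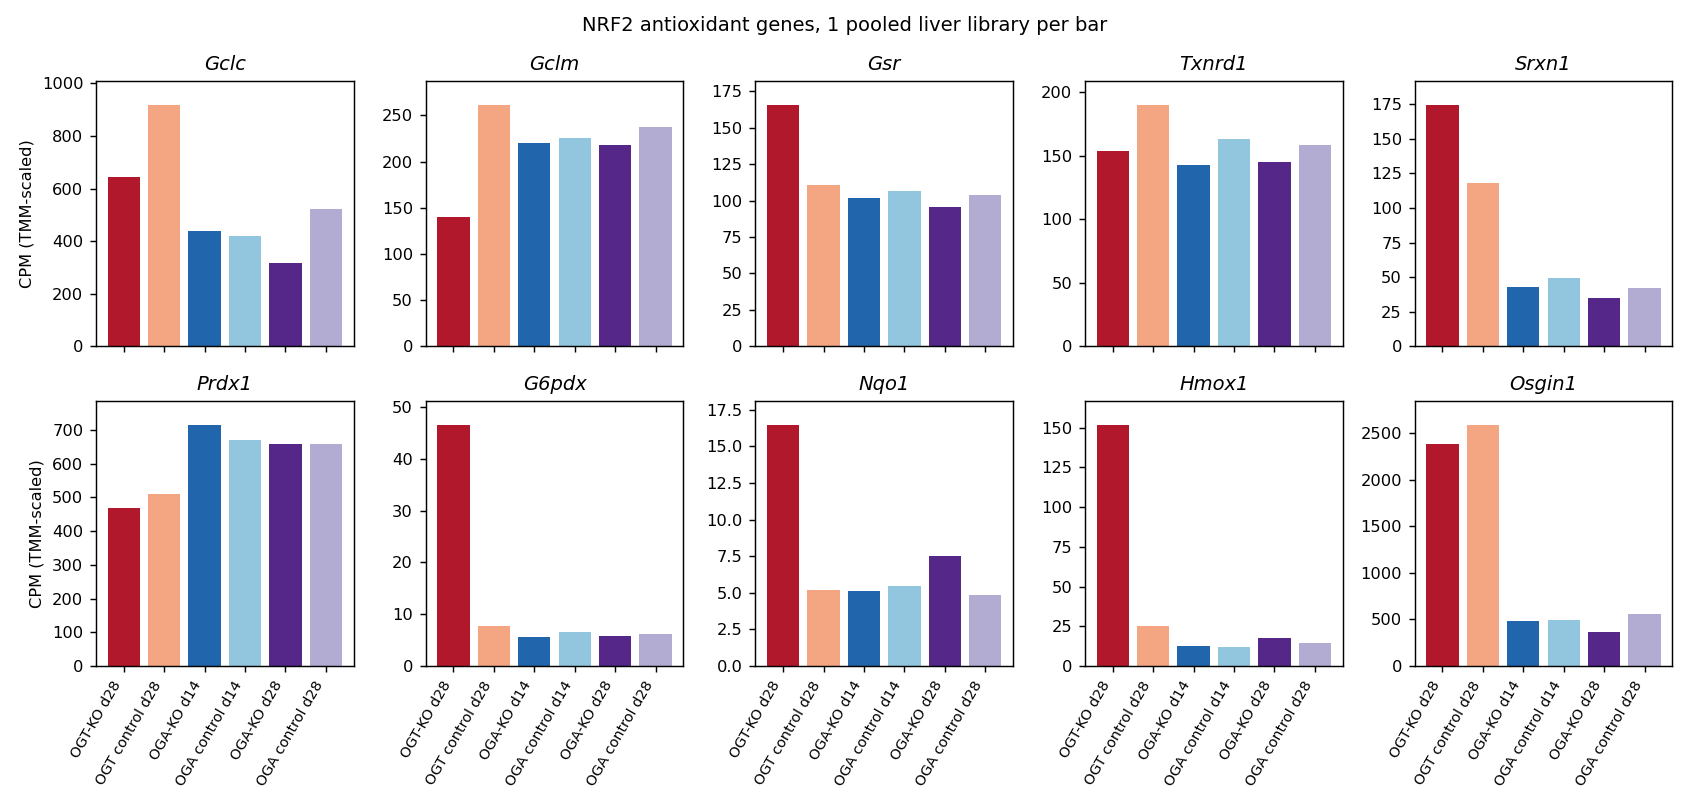
TMM-scaled CPM (vertical axis, each panel with its own scale from 0) of the 10 NRF2 antioxidant genes in the 6 libraries, 1 bar per library of pooled RNA. Hmox1, G6pdx and Nqo1 are highest in the OGT-KO library, at 151.9, 46.6 and 16.5 CPM, while Osgin1 and Srxn1 are high in both OGT libraries.

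Glutathione is made in a first, rate-limiting step by glutamate-cysteine ligase, whose catalytic subunit is Gclc and whose modifier subunit is Gclm. Gclm (ENSMUSG00000028124) was at 140.0 CPM in OGT-KO and 261.1 CPM in OGT control, at 219.6 CPM in OGA-KO and 225.9 CPM in OGA control at 14 days, and at 217.8 CPM in OGA-KO and 237.5 CPM in OGA control at 28 days. The OGT-KO library was the lowest of the 6, and the other 5 lay close together. The log2 ratio of OGT-KO over OGT control was -0.90 (95% counting interval -0.96 to -0.84), and Gclm fell in the edgeR test (adjusted p = 0.00159).

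Gclc (ENSMUSG00000032350) showed another pattern. It was at 643.3 CPM in OGT-KO and 917.6 CPM in OGT control, at 437.1 CPM in OGA-KO and 418.9 CPM in OGA control at 14 days, and at 318.0 CPM in OGA-KO and 524.1 CPM in OGA control at 28 days. Both OGT libraries exceeded all 4 OGA libraries. The OGA-KO ratios of Gclc differed between 14 and 28 days, a difference that the edgeR test takes as error. The OGT-KO log2 ratio of Gclc was -0.51 (-0.54 to -0.48), which did not pass the edgeR test (adjusted p = 0.152). That effect passed in the fits without a day term that left out the OGA-KO library at 14 days (adjusted p = 0.0248) or at 28 days (0.0233).

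Gsr (ENSMUSG00000031584), the reductase that turns oxidised glutathione back into its reduced form with NADPH, rose. Its level was 165.4 CPM in OGT-KO and 110.9 CPM in OGT control, and the 4 OGA libraries lay between 95.3 and 106.7 CPM. Only the OGT-KO library stood out among the 6. The log2 ratio was 0.58 (0.51 to 0.65) with an edgeR adjusted p of 0.00596, and the call was lost without the line term (effect 0.64, adjusted p = 0.0514).

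In the OGT pair the modifier subunit for synthesis was thus lower and the recycling enzyme higher. The median log2 effect of the 3 glutathione genes was -0.51, which is the effect of Gclc, not called. With library totals this median was -0.14.

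Thioredoxin reductase 1 (Txnrd1, ENSMUSG00000020250) returns thioredoxin to its reduced state, peroxiredoxin 1 (Prdx1, ENSMUSG00000028691) removes peroxides, and sulfiredoxin (Srxn1, ENSMUSG00000032802) repairs overoxidised peroxiredoxins. Srxn1 was at 174.4 CPM in OGT-KO and 117.8 CPM in OGT control, at 42.7 CPM in OGA-KO and 49.5 CPM in OGA control at 14 days, and at 35.2 CPM in OGA-KO and 41.8 CPM in OGA control at 28 days. The 2 OGT libraries were far above all OGA libraries, and OGT-KO was the higher of them. Its OGT-KO log2 ratio was 0.57 (0.50 to 0.63) with an edgeR adjusted p of 0.00528. The call was lost without the line term (effect 1.26, adjusted p = 0.202) and in DESeq2 (adjusted p = 0.0743).

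Txnrd1 varied least of the 10 genes, with levels of 154.1 CPM in OGT-KO and 189.9 CPM in OGT control and 142.9 to 163.0 CPM in the OGA libraries. Its OGT-KO log2 ratio was -0.30 (-0.36 to -0.24; edgeR adjusted p = 0.0508), and it passed without a day term (adjusted p = 0.0472). Prdx1 was at 467.4 CPM in OGT-KO and 509.5 CPM in OGT control, and at 658.2 to 715.8 CPM in the OGA libraries. It was the 1 member with both OGT libraries below all OGA libraries. The OGT-KO log2 ratio of Prdx1 was -0.12 (-0.16 to -0.09; edgeR adjusted p = 0.338). With library totals as the scale the ratios of Txnrd1, Prdx1 and Osgin1 in the OGT pair turned positive (0.07, 0.25 and 0.25), so they have no settled sign. Prdx1 has processed pseudogenes that could share its reads.

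Glucose-6-phosphate dehydrogenase (G6pdx, ENSMUSG00000031400) starts the oxidative pentose phosphate pathway, a main source of the NADPH that Gsr and Txnrd1 use. G6pdx was at 46.6 CPM (1301 counts) in OGT-KO and 7.62 CPM (176 counts) in OGT control. It was at 5.59 CPM in OGA-KO and 6.49 CPM in OGA control at 14 days, and at 5.74 CPM in OGA-KO and 6.11 CPM in OGA control at 28 days. The OGT-KO library alone was high, and the other 5 lay between 5.59 and 7.62 CPM. The log2 ratio was 2.60 (2.38 to 2.85), a 6.06-fold difference, and G6pdx rose in the edgeR test (log2 effect 2.61, adjusted p = 0.000238). On the deposited CPM scale it stood at 63.2 in OGT-KO and 8.05 in OGT control. The similar retrogene G6pd2 could share some of its reads.

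Heme oxygenase 1 (Hmox1, ENSMUSG00000005413) breaks down heme into biliverdin, iron and carbon monoxide, and macrophages that clear red cells also express it. Hmox1 was at 151.9 CPM (4242 counts) in OGT-KO and 25.4 CPM (587 counts) in OGT control, at 12.3 CPM in OGA-KO and 12.1 CPM in OGA control at 14 days, and at 17.8 CPM in OGA-KO and 14.1 CPM in OGA control at 28 days. OGT-KO was the highest library, OGT control came next, and the OGA libraries were lower than both. The log2 ratio in the OGT pair was 2.58 (2.45 to 2.71), a 5.96-fold difference, and Hmox1 rose (edgeR adjusted p = 0.000192).

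NAD(P)H quinone dehydrogenase 1 (Nqo1, ENSMUSG00000003849) reduces quinones and is a customary readout of NRF2 activity. It was at 16.5 CPM (460 counts) in OGT-KO and 5.199 CPM (120 counts) in OGT control, at 5.11 CPM in OGA-KO and 5.43 CPM in OGA control at 14 days, and at 7.52 CPM in OGA-KO and 4.85 CPM in OGA control at 28 days. The OGT-KO library was the highest, with OGA-KO at 28 days next. The OGT-KO log2 ratio was 1.65 (1.37 to 1.97), and Nqo1 rose (edgeR log2 effect 1.66, adjusted p = 0.00534). The 5 genes nearest to Nqo1 by distance between centred log2 CPM profiles over the 6 libraries, of 8117 profiles, were Fes (0.28), Jade2 (0.32), Actn1 (0.32), Csnk1e (0.34) and Crim1 (0.38).

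Oxidative stress induced growth inhibitor 1 (Osgin1, ENSMUSG00000074063) was the most abundant member in the OGT libraries per length of exon. It was at 2386 CPM in OGT-KO and 2593 CPM in OGT control, at 479.5 CPM in OGA-KO and 490.1 CPM in OGA control at 14 days, and at 362.5 CPM in OGA-KO and 555.9 CPM in OGA control at 28 days. The OGT libraries were several-fold above the OGA libraries, and within the OGT pair Osgin1 differed little. Its OGT-KO log2 ratio was -0.12 (-0.14 to -0.10; edgeR adjusted p = 0.646).

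**Figure D2:**
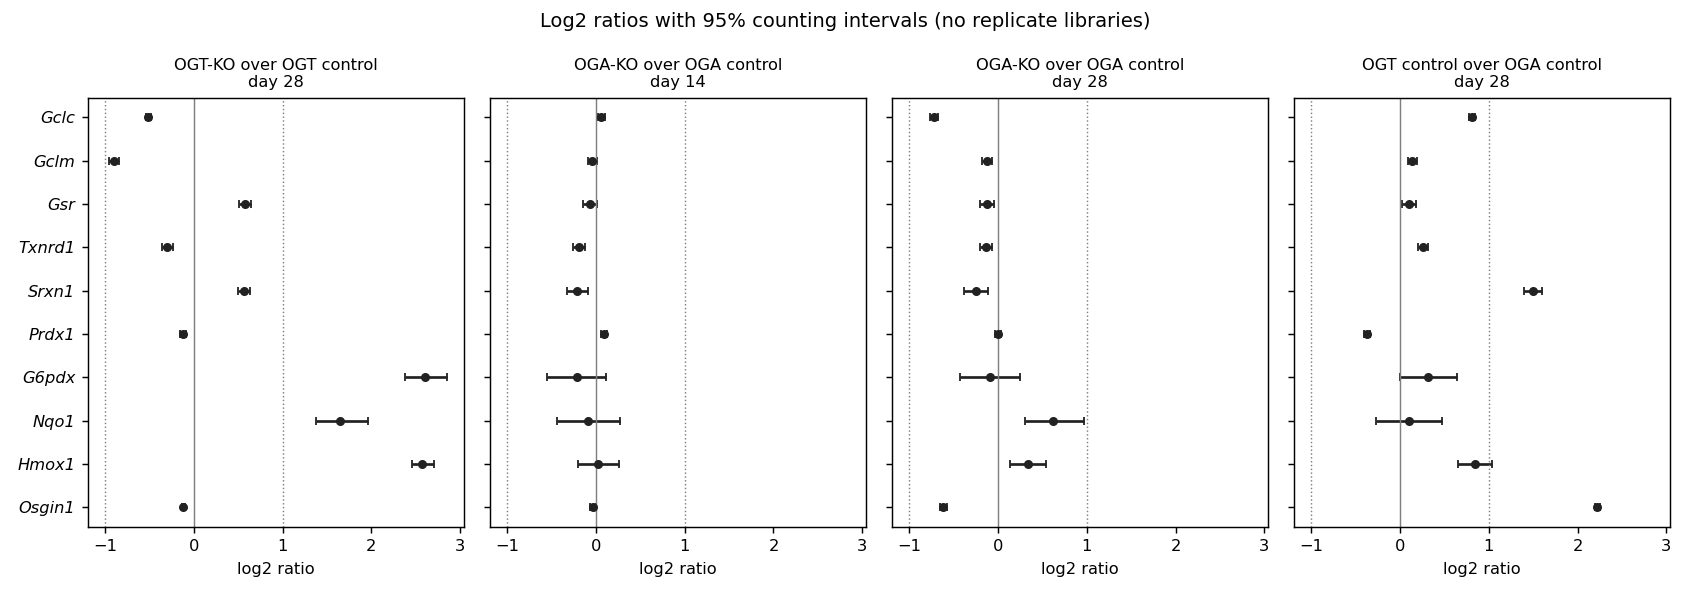
Log2 ratios (horizontal axis) of the 10 genes in 4 comparisons, with 95% counting intervals as bars and dotted lines at 2-fold. Hmox1, G6pdx and Nqo1 pass 2-fold in OGT-KO over OGT control, no gene passes it in either OGA-KO pair, and Osgin1 and Srxn1 pass it in OGT control over OGA control.

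Divided by exon length (CPM per kilobase of merged exons, GENCODE M21), the order of levels differed between the lines. In OGT-KO it ran Osgin1 (892.5), Gclc (170.8), Prdx1 (153.6), Hmox1 (86.8), Srxn1 (61.8), Gsr (60.1), Gclm (22.3), Txnrd1 (21.7), G6pdx (15.1) and Nqo1 (10.6). In OGT control Hmox1 was eighth at 14.5 CPM per kilobase and G6pdx last at 2.48. In the 4 OGA libraries Prdx1 led, at 216.3 to 235.2 CPM per kilobase where Osgin1 was at 135.6 to 207.9. Levels of Srxn1 and Gsr in OGT-KO, and of Gclm and Txnrd1 there, were nearly equal, and 1 library per group gives no spread by which to part such neighbours.

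The OGA-KO pairs gave small differences. At 14 days, 0 of 10 members passed 2-fold (0.839% of all genes did), and at 28 days 0 of 10 (2.57% of all genes). Over both times the edgeR test called 0 of 10 members, with 0.0333% of all genes called. At an unadjusted p under 0.05 it had 1 member, Srxn1 (log2 effect -0.23, adjusted p = 0.325), and DESeq2 had 0 adjusted and 0 unadjusted. In a fit without the day term and without the OGA-KO library at 14 days 1 member passed, Osgin1 (-0.53, adjusted p = 0.049). The members' median effect was -0.13, and that of all genes 0.00.

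At 28 days 3 members differed by over 1.5-fold in the OGA pair. Gclc was at 318.0 CPM in OGA-KO and 524.1 CPM in OGA control, a log2 ratio of -0.72 (-0.76 to -0.68), while at 14 days it was 0.06 (0.02 to 0.10). Osgin1 had a log2 ratio of -0.62 (-0.65 to -0.58) at 28 days and -0.03 (-0.07 to 0.00) at 14 days. Nqo1 had 0.62 (0.30 to 0.97) at 28 days and -0.09 (-0.44 to 0.27) at 14 days. These intervals cover counting error and not the spread between mice, and the edgeR effects of Gclc (-0.33, adjusted p = 0.483), Osgin1 (-0.32, adjusted p = 0.416) and Nqo1 (0.28, adjusted p = 0.577) over both times did not pass. The OGA-KO library at 28 days also stood apart by pancreas acinar transcripts: 9 markers summed to 193.9 CPM there and to 27.3 CPM in its control, against 5.23 to 29.5 CPM in the other libraries, where 6 or 7 of the 9 were at 0. Their part in these differences was not tested.

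Tested as a contrast of the OGT-KO and OGA-KO effects, 5 members had the higher effect in OGT-KO and 1 the lower, against 44.1% of all genes called, 21.4% higher and 22.7% lower. The higher ones were G6pdx (log2 difference 2.76), Hmox1 (2.39), Nqo1 (1.38), Srxn1 (0.79) and Gsr (0.67), and the lower one was Gclm (-0.82). In DESeq2 the calls of Nqo1 (adjusted p = 0.254) and Gsr (0.0721) were lost, and without the line term those of Srxn1 (0.113) and Gclm (0.086). In fits without the day term, leaving out the OGA control at 14 days ended the calls of Nqo1 and Srxn1. Leaving out that at 28 days ended the call of Nqo1. Such fits change the day term and the library together, so the loss cannot be laid to the library alone. The 2 knockouts were in different lines and have no shared library, so this contrast also holds what separates the lines in ways the design does not record.

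The 2 control groups differed too, although both carried floxed alleles, were male C57BL/6 and had the same operation. At 28 days Osgin1 and Srxn1 were at least 2-fold higher in OGT control than in OGA control, 2 of 10 members, against 4.72% of all genes higher, 5.72% lower and 10.4% either way. Osgin1 was at 2593 CPM in OGT control and 555.9 CPM in OGA control, a log2 ratio of 2.22 (2.20 to 2.25). Srxn1 was at 117.8 CPM in OGT control and 41.8 CPM in OGA control, a log2 ratio of 1.49 (1.39 to 1.60). Hmox1 (0.84, 0.66 to 1.04) and Gclc (0.81, 0.78 to 0.84) followed.

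By edgeR 4 members were higher in the OGT line, Osgin1 (log2 effect 2.36, adjusted p = 0.00314), Srxn1 (1.503, adjusted p = 0.00177), Gclc (0.99, adjusted p = 0.0325) and Hmox1 (0.77, adjusted p = 0.0146). Prdx1 was lower (-0.35, adjusted p = 0.0457). The background was 29.3% of all genes, 13.9% higher and 15.4% lower. With library totals 3410 of all genes were higher and 1121 lower, against 1675 and 1853 by TMM, and 7 members were higher and 0 lower. The calls of Osgin1 and Srxn1 held in every alternative run. Those of Gclc, Hmox1 and Prdx1 were lost in DESeq2. They were also lost in the fit without both the day term and the OGA control at 14 days. Those of Hmox1 and Prdx1 were lost in the fit without both the day term and the OGA control at 28 days. The Prdx1 call was also lost by scaling alone, with library totals (0.348) and with DESeq2 size factors (0.0523). Macrophage markers were also higher in the OGT line, 13 of 18, and their part in the Hmox1 line effect was not tested. Line, library preparation and whatever else separates the OGT from the OGA libraries cannot be told apart. In the OGA controls, 0 of 10 members passed 2-fold between 28 and 14 days, with 0.927% of all genes past it.

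By edgeR 4 of 12 regulators of NRF2 changed in OGT-KO, against 52.7% of all genes, and 3 of 12 differed between the lines, against 29.3%, so neither share exceeds its background. Nfe2l2 itself was at 165.5 CPM in OGT-KO and 136.3 CPM in OGT control, at 64.2 CPM in OGA-KO and 55.0 CPM in OGA control at 14 days, and at 76.1 CPM in OGA-KO and 66.2 CPM in OGA control at 28 days. Both OGT libraries were above all OGA libraries (line effect 1.05, edgeR adjusted p = 0.00333), whereas the OGT-KO effect of 0.28 did not pass (0.0544). With library totals it passed (0.65, adjusted p = 0.00342). Keap1 was at 49.6 CPM in OGT-KO and 89.4 CPM in OGT control and at 71.6 to 75.6 CPM in the OGA libraries, and it fell in OGT-KO (log2 effect -0.85, adjusted p = 0.00149; lost without the line term, 0.0813).

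Small MAF proteins are the partners with which NRF2 binds DNA. Maff was at 12.4 CPM in OGT-KO and 3.42 CPM in OGT control, at 6.25 CPM in OGA-KO and 2.29 CPM in OGA control at 14 days, and at 11.8 CPM in OGA-KO and 2.94 CPM in OGA control at 28 days. In each of the 3 pairs the knockout library was the higher, with a log2 ratio of 1.83 in the OGT pair, 1.42 (1.01 to 1.92) in the OGA pair at 14 days and 1.97 (1.63 to 2.38) in the OGA pair at 28 days. Maff rose in OGT-KO (edgeR log2 effect 1.85, adjusted p = 0.00276), and its OGA-KO effect of 1.75 had an adjusted p of 0.12. Of the 12 regulators 2 rose in OGT-KO, Maff and Mafk (0.82, adjusted p = 0.00372), and 2 fell, Keap1 and Nfe2l1 (-0.62, adjusted p = 0.00643), with a median of -0.23. With library totals 4 rose and 1 fell (median 0.14), and the call of Mafk was lost in DESeq2 (adjusted p = 0.111) and that of Nfe2l1 with library totals (0.105).

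Of 12 glutathione genes with a row among 16 listed, 4 rose and 4 fell by edgeR in OGT-KO (median log2 effect -0.04). Gpx2, Gpx8, Ggt1 and Slc7a11 had no row, so their levels are unknown. Of all genes 26.1% rose and 26.6% fell. With library totals 6 rose and 1 fell (median 0.33), against 5334 and 1862 of 12026 genes. Gpx3, a secreted glutathione peroxidase, was at 174.4 CPM in OGT-KO and 7.28 CPM in OGT control (log2 effect 4.58), and Ggt5, which cleaves glutathione conjugates, was at 8.27 CPM in OGT-KO and 1.60 CPM in OGT control (2.36). Gpx7 rose by 2.49 and Ggct, a gamma-glutamylcyclotransferase, fell by 1.12 on the log2 scale. The calls of Ggt5 (adjusted p = 0.078), Gpx7 (0.0986) and Ggct (0.242) were lost in DESeq2.

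Glutathione transferases couple glutathione to drugs and lipid products. Of 21 tested, 14 fell and 4 rose, against 26.6% and 26.1% of all genes, with a median log2 effect of -0.94. With library totals the median was -0.57 (11 fell and 5 rose). Their summed level was 3791 CPM in OGT-KO and 9405 CPM in OGT control, against 9374 to 9824 CPM in the OGA libraries. Gsta3 was at 170.7 CPM in OGT-KO and 1050 CPM in OGT control (log2 effect -2.62), Gstk1 at 16.7 CPM in OGT-KO and 93.1 CPM in OGT control (-2.48), and Gstt1 at 36.8 CPM in OGT-KO and 174.7 CPM in OGT control (-2.25). Gsta1 went the other way, at 25.9 CPM in OGT-KO and 6.67 CPM in OGT control (1.95; lost without the line term, adjusted p = 0.0713). Counts within these families can be split by similar sequences.

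In the wider thioredoxin and peroxiredoxin system, 2 of 13 genes rose and 7 fell (median -0.36), against 26.1% and 26.6% of all genes. With library totals 4 rose and 4 fell (median 0.01). Txnip, an inhibitor of thioredoxin, was at 138.3 CPM in OGT-KO and 35.7 CPM in OGT control (log2 effect 1.96). The mitochondrial reductase Txnrd2 was at 20.1 CPM in OGT-KO and 47.4 CPM in OGT control (-1.24), and Txnrd3 at 2.97 CPM in OGT-KO and 10.01 CPM in OGT control (-1.75). Both reductases related to Txnrd1 fell, while Txnrd1 itself did not pass. The sestrin Sesn3 was at 11.4 CPM in OGT-KO and 35.1 CPM in OGT control (-1.62).

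Of 9 other NADPH-producing enzymes tested, 6 fell and 2 rose (median -0.53), against 26.6% and 26.1% of all genes. With library totals 4 fell and 3 rose (median -0.16). Pgd, which follows G6pdx in the pentose phosphate pathway, was at 183.8 CPM in OGT-KO and 110.2 CPM in OGT control, above the 45.2 to 52.9 CPM of the OGA libraries (OGT-KO log2 effect 0.74, lost without the line term at adjusted p = 0.107; line effect 1.06). The folate enzyme Aldh1l1 fell to 306.9 CPM in OGT-KO, against 1194 CPM in OGT control (-1.96), and Mthfd1 to 96.6 CPM in OGT-KO, against 265.8 CPM in OGT control (-1.46). The malic enzyme Me1 was at 107.2 CPM in OGT-KO and 241.4 CPM in OGT control (-1.17). The call of Me1 was lost without the line term (adjusted p = 0.239).

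Of 19 tested NRF2-associated drug and quinone genes, 9 rose and 6 fell (median 0.29), against 26.1% and 26.6% of all genes. With library totals 12 rose and 5 fell (median 0.66), against 5334 and 1862 of 12026 genes. The prostaglandin reductase Ptgr1 was at 20.6 CPM in OGT-KO and 2.12 CPM in OGT control (log2 effect 3.28), the export pump Abcc4 at 75.5 CPM in OGT-KO and 9.01 CPM in OGT control (3.07). The aldo-keto reductase Akr1b8 was at 9.17 CPM in OGT-KO and 1.39 CPM in OGT control (2.72). Ces1g, a carboxylesterase of hepatocytes, was at 4.76 CPM in OGT-KO and 111.7 CPM in OGT control (-4.55).

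Among 8 genes of heme and iron handling 1 rose and 3 fell (median -0.13), against 26.1% and 26.6% of all genes. With library totals 4 rose and 2 fell (median 0.25). Biliverdin reductase B (Blvrb) was at 30.0 CPM in OGT-KO and 94.2 CPM in OGT control (log2 effect -1.65). Biliverdin reductase A (Blvra) was at 11.4 CPM in OGT-KO and 8.32 CPM in OGT control, and its effect of 0.46 did not pass. Ferritin light chain (Ftl1) was at 2095 CPM in OGT-KO and 3668 CPM in OGT control (-0.81), and ceruloplasmin (Cp) at 1350 CPM in OGT-KO and 876.2 CPM in OGT control (0.62). The calls of Ftl1 and Cp were lost without the line term (adjusted p = 0.356 and 0.951). The iron exporter Slc40a1 did not pass (-0.27, adjusted p = 0.0659).

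Superoxide dismutases, catalase, paraoxonase and metallothioneins all changed, 3 upward and 4 downward (median -1.28), against 52.7% of all genes changed. Catalase (Cat) was at 1011 CPM in OGT-KO and 3430 CPM in OGT control (-1.76), and Pon1 at 32.8 CPM in OGT-KO and 336.4 CPM in OGT control (-3.36). The metal-binding Mt1 was at 202.6 CPM in OGT-KO and 9.10 CPM in OGT control (4.48), and Mt2 at 112.8 CPM in OGT-KO and 3.68 CPM in OGT control (4.94). In the OGA libraries Mt1 lay between 44.5 and 132.7 CPM, above OGT control, and the OGT-KO calls of Mt1 and Mt2 were lost without the line term (adjusted p = 0.126 and 0.128).

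In the OGA pair at 28 days the metallothioneins, Gpx3, Maff, Cyp2a5 and Trib3 passed 2-fold, and so did 2.57% of all genes. Mt1 was at 132.7 CPM in OGA-KO and 44.5 CPM in OGA control, Mt2 at 57.9 CPM in OGA-KO and 17.5 CPM in OGA control, and Gpx3 at 7.64 CPM in OGA-KO and 2.87 CPM in OGA control. Cyp2a5 was at 800 CPM in OGA-KO and 327.7 CPM in OGA control, and Trib3 at 13.3 CPM in OGA-KO and 5.43 CPM in OGA control. The part of the acinar transcripts of the OGA-KO library at 28 days was not tested. These genes were gathered because they passed at 28 days. In the OGA pair at 14 days Maff passed 2-fold too (log2 ratio 1.42). There Mt1 (0.38), Mt2 (-0.29), Gpx3 (0.78), Cyp2a5 (-0.01) and Trib3 (0.95) did not pass. None of these genes was called by edgeR for OGA-KO over both times.

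**Figure D3:**
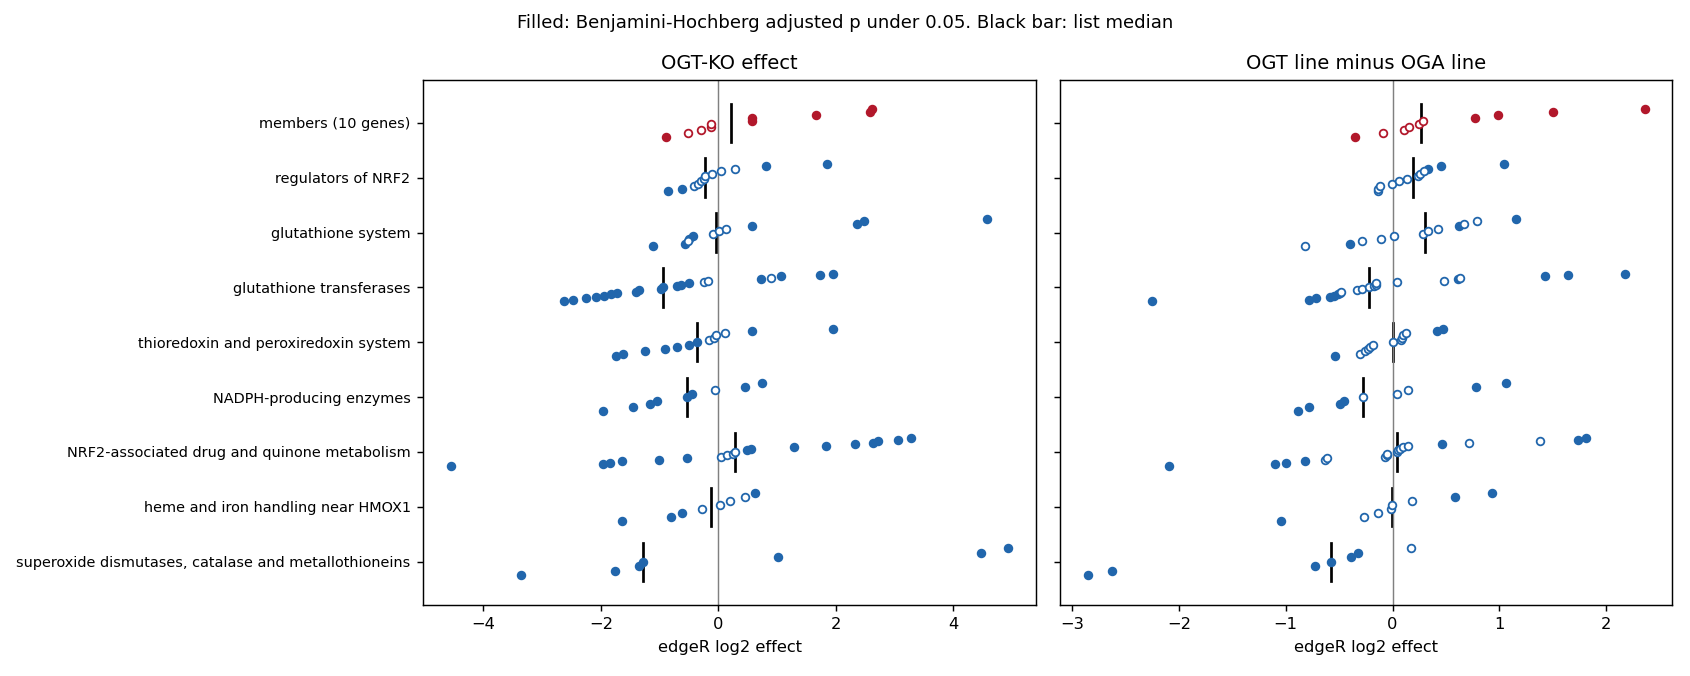
EdgeR log2 effects (horizontal axis) of the 10 members and of 8 lists of pathway genes, 1 point per gene, for OGT-KO on the left and OGT line minus OGA line on the right. Filled points have an adjusted p under 0.05 and black bars are list medians. Members lie on both sides of 0 in OGT-KO, with a median of 0.22, and the glutathione transferases lie mostly below it, with a median of -0.94.

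Markers of other cell types moved with the OGT-KO library and are given beside Hmox1, which macrophages also express. The 18 macrophage markers with a row (of 21 listed) summed to 2089 CPM in OGT-KO and 502.6 CPM in OGT control, and to 278.1 to 340.4 CPM in the OGA libraries. By edgeR 17 of 18 rose, against 26.1% of all genes, Timd4 was not called (-0.20), and none was at 0 in any library. The Kupffer cell receptor Clec4f was at 93.4 CPM in OGT-KO and 67.0 CPM in OGT control, and the macrophage lysosomal protein Cd68 at 85.1 CPM in OGT-KO and 17.1 CPM in OGT control. Hmox1 and the macrophage sum were highest in OGT-KO, next in OGT control and lowest in the OGA libraries, an order that the sums of stellate, cholangiocyte and dividing-cell markers shared. Its 5 nearest profiles were Tyrobp (0.29), Slc15a3 (0.35), Axl (0.41), Flna (0.44) and Ednrb (0.47). The part of macrophages in the Hmox1 values was not tested.

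As background for the marker counts here, 26.1% of all genes rose in OGT-KO and 26.6% fell. With library totals these were 5334 and 1862 of 12026 genes. Stellate and matrix markers summed to 2733 CPM in OGT-KO and 309.5 CPM in OGT control (13 of 13 rose). Cholangiocyte markers summed to 503.1 CPM in OGT-KO and 102.7 CPM in OGT control (7 of 8 rose). Markers of dividing cells summed to 148.3 CPM in OGT-KO and 15.5 CPM in OGT control (6 of 6 rose). Endothelial markers summed to 461.5 CPM in OGT-KO and 348.4 CPM in OGT control, with 3 of 12 up and 4 down, and 7 up and 2 down with library totals. Erythroid markers summed to 53.1 CPM in OGT-KO and 182.2 CPM in OGT control (3 of 4 fell, and 1 of 4 with library totals). Most of that difference lay in Alas2, at 6.80 CPM in OGT-KO and 116.3 CPM in OGT control. The globin genes differed less: Hba-a1 (11.4 and 18.5 CPM), Hbb-bs (30.8 and 41.7 CPM) and Hbb-bt (4.19 and 5.68 CPM, not called). Of 8 listed T, NK and B cell genes only Jchain had a row, at 0.322 CPM in OGT-KO and 0.563 CPM in OGT control. Hepatocyte markers summed to 81775 CPM in OGT-KO and 118184 CPM in OGT control, and 9 of 12 fell (with library totals 6 fell and 2 rose). The part of these shifts in the values of Gclm, G6pdx, Nqo1, Gsr and Srxn1 was not tested.

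**Figure D4:**
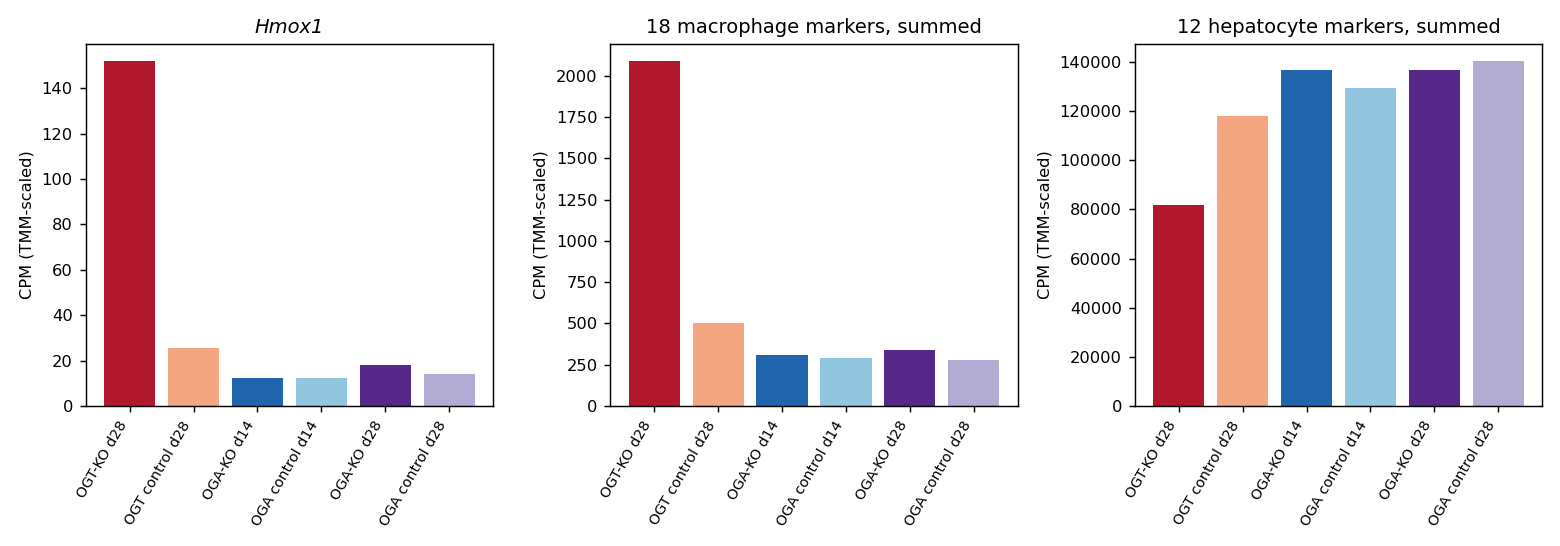
TMM-scaled CPM (vertical axes from 0) of Hmox1, of 18 macrophage markers summed and of 12 hepatocyte markers summed, 1 bar per library. OGT-KO is highest for Hmox1 (151.9 CPM) and for the macrophage sum (2089 CPM) and lowest for the hepatocyte sum (81775 CPM).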

How the data were processed

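Messenger RNA of 6 pooled mouse liver libraries, 1 per group, was analysed. The deposited count table held whole-number counts per Ensembl gene, with 2 lanes already combined. The deposited CPM table held counts that the authors scaled by library total. In both OGT columns the divisor exceeded the column total, by 158367 counts in OGT-KO (0.769%) and 22723 in OGT control (0.104%). The submitters' processing notes name STAR, Subread, edgeR and mm39. Versions, settings and strand use are not given in the sources used here, so reads of overlapping genes cannot be told apart. Symbols came from the reference tables for 12019 of 12027 identifiers. Exon lengths came from GENCODE M21, a different build, used for lengths only.

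The lowest row sum over the 4 OGA libraries was 28 counts, while 56 rows were at 0 in both OGT libraries. Genes with counts mainly in the OGT libraries may therefore lack a row. Such genes would be missing from the list counts and from the shares of all genes. How rows were chosen is not given in the sources used here. Depth was 20433100 to 29327722 counts, and 3 counts correspond to 0.102 to 0.147 CPM. Log2 ratios used TMM-scaled CPM (edgeR 4.0.16, R 4.3.3) with a prior count of 2. Passing 2-fold also required 1 CPM in the higher library. Intervals are exact Clopper-Pearson 95% intervals for a binomial share. They cover counting error only, as do floors, because each group holds 1 library. PCR copies were not marked by molecular identifiers and could make that error larger than shown.

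The quasi-likelihood model of edgeR estimated 5 coefficients: the intercept, the effects of line and day, and 1 effect per knockout. It used filterByExpr. Its p-values hold no spread between libraries of the same group, because each group holds 1 library. The 1 residual degree of freedom comes from how the OGA-KO effect differs between the times. The p-values of the OGT-KO and line effects rest on that residual too. The procedure was also run on simulated libraries that shared a mean profile, with no line or day effect and few changed genes. These settings differ from the data here, so that run is no check of the p-values. Alternatives were other scalings (totals, DESeq2 1.42.0 size factors, the deposited CPM with a pseudocount of 0.1), prior counts of 0.5 and 10, minima of 5 CPM or none, a 1.5-fold limit, no count filter, DESeq2 as the test, fits without the line or day term and fits leaving out 1 OGA library. Each fit leaving out 1 OGA library was also without the day term. The line effect was added after the data were seen.

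The members and the gene lists were chosen with earlier results of these data known. Named genes were the members, Ogt, Oga, the regulators, up to 4 genes per list with the largest ratio in any pair, and the 5 nearest profiles of Nqo1 and Hmox1 at a mean of 10 CPM or more. Cyp2a5 and Trib3 were named in addition because they passed 2-fold in the OGA pair at 28 days. Blvra was named beside Blvrb. Marker genes were named after their values were seen.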

Additional observations from a re-analysis of the deposited data

Results flagged for a closer look

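The Gclc ratios of the OGA-KO pairs had opposite signs at the 2 times. Its log2 ratio of OGA-KO over OGA control was -0.72 at 28 days and 0.06 at 14 days. The difference between the times was not tested, since each pair holds 1 library per group. Gclc was at 7863 counts in OGA-KO and 13719 counts in OGA control at 28 days, and at 11812 counts in OGA-KO and 10265 counts in OGA control at 14 days.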

How the results depend on the processing

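No paired analysis was possible because each group holds 1 library. Every fit in which 1 OGA library was left out also lacked the day term. No member changed direction in a called value under any alternative run. The 3 members past 2-fold in OGT-KO stayed at 3 under every other scaling, prior count and CPM minimum, and were 4 at 1.5-fold. In the OGA-KO pair at 28 days the count was 0 at 2-fold and 3 at 1.5-fold. Between the control lines it was 2 at 2-fold, and 4 with library totals, with the deposited CPM and at 1.5-fold. For OGA-KO by edgeR the count of 0 was 0 to 1 when 1 OGA library was left out: without OGA-KO at 14 days Osgin1 passed (log2 effect -0.53, adjusted p = 0.049). The 5 line calls were 2 in DESeq2 and 2 to 5 when 1 OGA library was left out. Over all genes, edgeR calls in OGT-KO were 3134 risen and 3198 fallen, 5334 and 1862 with library totals, 1616 and 1419 without the line term, and 1207 and 1684 in DESeq2. The cause of these shifts was not tested. Without replicates, differences between mice within a group cannot be seen.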
